A study of Mus musculus with 6 samples.

Results

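Among the exonic circRNAs of mouse liver, 46 host genes each produced 8 or more distinct circles. A circRNA is an RNA closed by a back-splice, in which the end of a downstream exon is joined to the start of an upstream exon. The members were chosen from the readout itself: exonic entries that ended at the same base of the same strand and whose starts lay 1 bp apart were joined into 1 circle, and a gene was kept when at least 8 circles carried its name. By this rule 46 of 3030 host genes (1.52%) were hotspot genes, and they held 495 of 6068 exonic circles (8.16%) and 3887 of 33045 exonic back-spliced reads (11.8%). A back-spliced read is a sequencing read that spans the closing junction of a circle. The number of circles per gene is therefore what the rule used and is given only as a description.

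Liver RNA came from male C57BL/6J mice of 12 weeks of age. After 7 weeks, the HFD group had been fed a high-fat diet (60% fat) and the LFD group a low-fat control diet (10% fat), with 3 mice per group and 1 library per mouse. Strain, age and tissue were the same in both groups, and the labels name no modified gene. Ribosomal RNA had been depleted and, per the study's methods but not the sample descriptions, linear RNA had been digested with RNase R. In the 6 libraries the exonic circles had between 5027 and 6098 reads. HFD 1 and LFD 3 stood apart from the other 4 libraries by a higher Q30, a measure of base quality, and by intronic circles, which held 10.8% and 8.28% of their back-spliced reads against 4.56% to 5.43% elsewhere. Of 10 hepatocyte marker genes 9 had exonic circles, with 14 to 19 reads per HFD library and 7 to 16 per LFD library, against 3 of 8 myeloid, 3 of 8 endothelial, 1 of 7 stellate or fibroblast, 0 of 5 cholangiocyte and 0 of 5 lymphocyte markers, none with more than 4 summed reads per library in its list. No hotspot gene was in a marker list. In whole liver, fewer cells of a type and fewer circles per cell cannot be told apart.

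Back-splicing uses the same splice sites as linear splicing. The acceptor, at the start of an exon, is normally joined to the exon before it, and in a circle it receives a donor from further downstream. Long introns on either side, and sequences in them that pair with each other, are known to bring such sites together, and a gene with many exons offers many pairings. Circles lack free ends, resist exonucleases and often outlive the linear RNA of the same gene.

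The gene with the plainest pattern is listed as Gm45062, on chromosome 6 (GRCm38 chr6:8259450-8597480, plus strand), where its annotated span overlaps that of Glcci1, the gene of a glucocorticoid-induced protein, at chr6:8509600-8597548 on the same strand. All 8 circles listed under Gm45062 began and ended at exons of the Glcci1 transcript Glcci1-201, between its exons 2 and 7, so which of the overlapping names applies is uncertain, and no circle was listed under Glcci1. Their junctions are shown because 6 of the 8 circles joined a different donor to the same acceptor. Each line gives the last 20 bases of the last exon in lower case and the first 20 bases of the first exon in capitals, 5′ to 3′, from the GENCODE M21 transcripts on GRCm38. All of these bases are coding. The capitals repeat in the first 6 lines.
circRNA4482, exon 2 alone (chr6:8537817-8537968): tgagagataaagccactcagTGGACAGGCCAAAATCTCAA
circRNA811, exons 2 to 3 (chr6:8537817-8558586): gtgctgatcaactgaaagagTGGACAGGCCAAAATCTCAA
circRNA812, exons 2 to 4 (chr6:8537817-8573298): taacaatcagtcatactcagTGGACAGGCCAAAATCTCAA
circRNA810, exons 2 to 5 (chr6:8537817-8579739): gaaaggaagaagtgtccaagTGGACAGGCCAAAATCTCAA
circRNA813, exons 2 to 6 (chr6:8537817-8582790): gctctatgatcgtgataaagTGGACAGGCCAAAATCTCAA
circRNA814, exons 2 to 7 (chr6:8537817-8591665): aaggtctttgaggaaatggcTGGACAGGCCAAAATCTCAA
circRNA2352, exons 3 to 6 (chr6:8558500-8582790): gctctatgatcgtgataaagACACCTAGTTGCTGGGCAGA
circRNA2353, exons 4 to 6 (chr6:8573185-8582790): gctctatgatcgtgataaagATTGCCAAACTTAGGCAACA

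The acceptor of exon 2 received 98.2% of the 169 reads of these 8 circles. In the order HFD 1, HFD 2, HFD 3, LFD 1, LFD 2 and LFD 3, circRNA813 had 6, 14, 13, 4, 12 and 6 reads, circRNA810 had 9, 6, 10, 4, 4 and 3 reads, and circRNA811 had 4, 13, 7, 0, 4 and 4 reads. CircRNA812 had 7, 2, 3, 7, 2 and 1 reads and circRNA814 had 2, 3, 3, 5, 6 and 1 reads. The circle ending at exon 6 led with 32.5% of the reads (95% Wilson interval 25.9% to 39.9%, which covers counting error only), followed by those ending at exon 5 with 21.3%, exon 3 with 18.9%, exon 4 with 13% and exon 7 with 11.8%. No donor of this gene held most of the reads, and which circle came first changed between libraries. The circle of exon 2 alone had 1 read in all, and the 2 circles that began at exons 3 and 4 had 3 reads between them.

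The 7 genes with the most circles, ties included, are shown by the junction of their circle with the most reads, in the same notation and written along the transcript.
Vwa8 mmu_circ_0005455, exons 13 to 14 (chr14:78982236-78984302, plus): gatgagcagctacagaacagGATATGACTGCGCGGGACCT
Dpyd mmu_circ_0001163, exons 6 to 8 (chr3:118797348-118811267, plus): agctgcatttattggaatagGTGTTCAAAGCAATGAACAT
Gphn mmu_circ_0004213, exons 2 to 4 (chr12:78343352-78412433, plus): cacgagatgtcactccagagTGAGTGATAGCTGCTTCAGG
Itpr2 circRNA2397, exons 32 to 33 (chr6:146310987-146312967, minus): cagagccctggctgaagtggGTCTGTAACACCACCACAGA
Rabep1 mmu_circ_0000281, exons 2 to 3 (chr11:70874746-70884968, plus): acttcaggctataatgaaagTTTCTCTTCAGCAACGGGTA
Rere mmu_circ_0001305, exons 8 to 10 (chr4:150500003-150510038, plus): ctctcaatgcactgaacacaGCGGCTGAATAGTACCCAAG
Mia2 circRNA2981, exons 4 to 6 of the transcript listed (chr12:59172526-59185787, plus): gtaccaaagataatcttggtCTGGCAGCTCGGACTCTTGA

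The listed start of the Mia2 circle lay 1 bp inside the annotated exon, and the capitals are read from the exon's own first base. In Itpr2 the circle shown shared the lead with others, since 3 circles had 4 reads each.

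The number of circles ran from 8 to 18 per gene. Vwa8, which encodes a mitochondrial ATPase, had 18 circles, and Dpyd, the enzyme that starts the breakdown of pyrimidines, had 17. Gphn, whose product gephyrin makes the molybdenum cofactor in liver, and Itpr2, a calcium release channel of the endoplasmic reticulum, had 16 each. Rabep1, an effector of endosome fusion, Rere, a transcriptional corepressor, and Mia2, which serves the export of large cargo from the endoplasmic reticulum, had 14 each. Scp2, a carrier and thiolase for sterols and fatty acids, Dennd5b, a regulator of Rab proteins, and Vps13b, a lipid transport protein of the Golgi, had 13 each. At the threshold, Adk, Gm45062, Arhgap10, Usp6nl, Eif4g3, Vps50, Qrich1 and Zfp236 had 8 circles with 14 to 212 reads, while 33 genes just outside it had 7 circles with 10 to 454 reads, among them Asph with 454 reads and Depdc5 with 10.

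**Figure D1:**
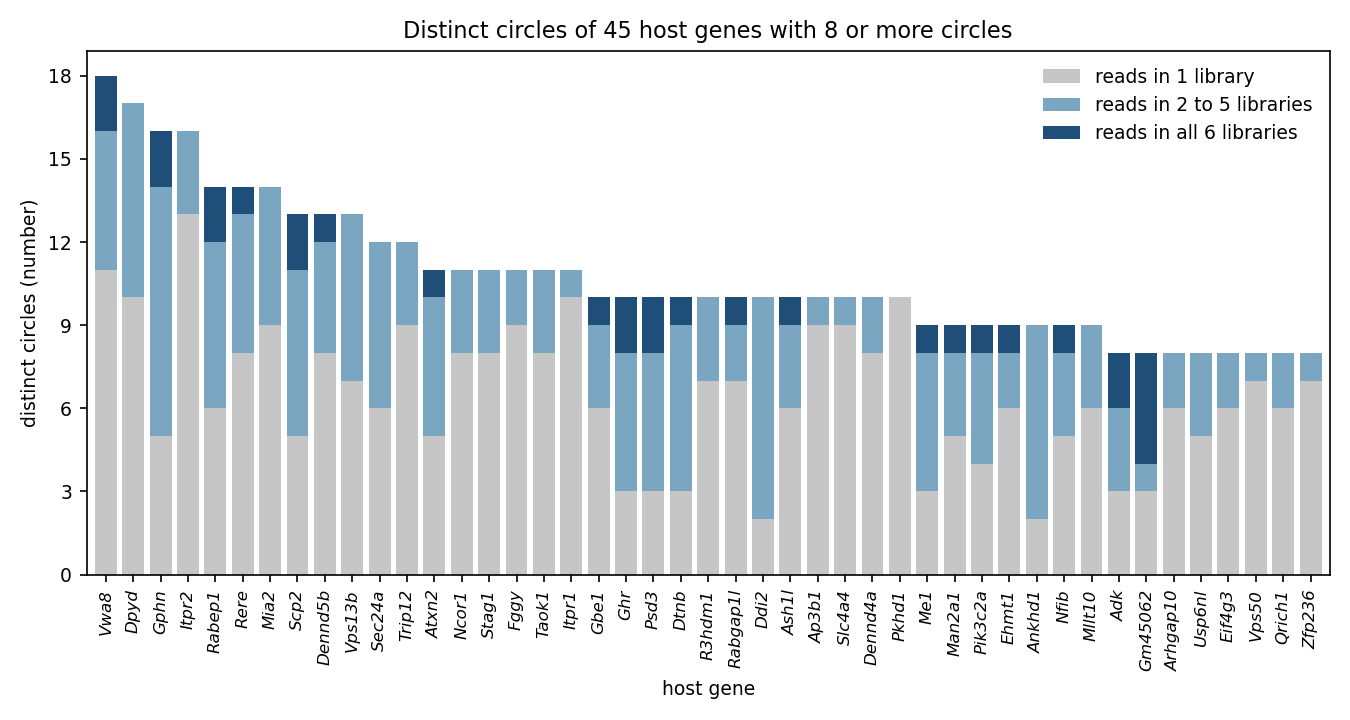
Number of distinct circles (vertical axis) of each of 45 of the 46 host genes (horizontal axis), divided by the number of libraries in which a circle had reads. Most circles of most genes were seen in 1 library, and the dark segments, circles with reads in all 6 libraries, number 30 in the genes plotted.

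Most of these circles were rare. Of the 495 circles, 296 (59.8%) had reads in 1 library only, 168 in 2 to 5 libraries and 31 (6.26%) in all 6. The 31 held 56.7% of the reads of the hotspot genes, whereas the 272 circles with 1 or 2 reads held 9.70%. Of the other exonic circles, 68.2% were seen in 1 library and 3.52% in all 6. Counting only circles with at least 2 reads would leave 17 of the 46 genes with 8 or more circles, and counting only circles with reads in at least 2 libraries would leave 4, Gphn with 11 and Rabep1, Scp2 and Ddi2 with 8 each. Gphn, Rabep1 and Scp2 had over 200 reads each, and Ddi2, which encodes a protease related to the proteasome system, had 68. At the other end, the 10 circles of Pkhd1, the gene of fibrocystin, a protein of the cilium of bile duct cells, came from 13 reads, all in 1 library each. The 8 circles of Zfp236, a zinc finger gene, came from 14 reads.

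Among the hotspot genes, which were chosen by their number of circles and so cover only the upper end of it, reads and circles had a Spearman rho of 0.311 over 46 genes that share the 6 libraries. Among the 42 host genes with at least 100 reads, 13 were hotspot genes and 2 had a single circle. Conversely, 22 hotspot genes had fewer than 50 reads. When each gene was reduced by calculation to 13 reads, the smallest total of a hotspot gene, the expected number of circles had a median of 6.26 in the hotspot genes, 4.20 in the 154 genes with 5 to 7 circles and as many reads, and 2.72 in all 573 host genes with at least 13 reads. These 573 include the hotspot genes, and the count of circles that chose the members enters this value.

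The hosts themselves were long genes with many exons. The median length of a hotspot gene was 155764 bp, against 118210 bp for genes with 5 to 7 circles and 62074.5 bp for all host genes whose length was found. The median number of exons in the listed transcript was 23.5, against 19 and 14. Dpyd spans 870796 bp and Rabgap1l, whose product acts on Rab proteins, 574038 bp. At the short end, Qrich1, a transcriptional regulator of the stress response of the endoplasmic reticulum, spans 43358 bp and Ddi2 45871 bp.

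Circles of a hotspot gene mostly reused each other's splice sites. Of the 495 circles, 414 (83.6%) shared an acceptor or a donor with another circle of their gene, against 74.6% in genes with 5 to 7 circles and 43.6% over all exonic circles. This share rises with the number of circles a gene has and is given as a description. The circles used 299 acceptors and 338 donors, and a gene had fewer acceptors than donors in 28 cases, fewer donors in 10 and equal numbers in 8. In Gphn, 6 circles began at exon 2, and the acceptor with the most reads held 82.8% of the gene's reads. In Rabep1 4 circles began at exon 2 and the leading acceptor held 90.7%. In Zfp236, 6 of 8 circles began at 1 acceptor, with 12 of the gene's 14 reads. Dpyd showed the opposite arrangement for its leading circles, since those from exon 6, exon 5 and exon 4 all ended at exon 8, with 39, 20 and 7 reads. Sharing was less common in Vps13b, in 7 of 13 circles, and in Ncor1, the nuclear receptor corepressor, in 5 of 11.

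Exon 2, the first exon that carries an acceptor, opened 16.3% of the 480 hotspot circles whose ends both lay on exons of the listed transcript, and these held 20.3% of the reads. Among the other exonic circles, 29.3% opened at exon 2, with 38.9% of the reads. No hotspot circle opened at exon 1. The circles had a median of 4 exons against 3 in the other exonic circles, and a median spliced length of 473.5 bases against 397. The introns on both sides of a hotspot circle summed to a median of 24488 bp, against 13690.5 bp for the other exonic circles. A name from the circRNA database was carried by 33.9% of the hotspot circles and 34.6% of the others.

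The circle with the most reads in a gene, here called its dominant circle, held 55.0% of all reads of the hotspot genes when the genes were summed (2138 reads). Since it was picked as the highest, its share cannot fall below that of the others. Taken gene by gene, the median share was 38.4%, against 50% for genes with 5 to 7 circles, whose reads are divided among fewer circles by the rule itself, and in 12 of the 46 genes it passed 50%. Dominant circles were shorter than the other circles of the same genes, with a median of 2 exons against 4, and had longer flanking introns, with a median sum of 31135 bp against 23622 bp. Of 44 dominant circles placed on their transcript, 36 consisted entirely of coding exons of it and 9 began at exon 2. The 436 other circles placed had 382 and 69 such circles. Among the 46 dominant circles, 20 had reads in all 6 libraries and 29 carried a database name, as did 139 of the 449 others. When the dominant circle was chosen in 1 diet and its share measured in the other, the share was 52.8%.

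The highest shares belonged to genes with many reads. Gbe1 encodes the glycogen branching enzyme. Its circle of exons 4 to 7 (mmu_circ_0006376, chr16:70433545-70441319, plus) had 33, 49 and 31 reads on the HFD and 25, 29 and 40 on the LFD, 88.5% of the gene's 234 reads (Wilson interval 83.7% to 91.9%), and the next circle had 13 reads. Atxn2 encodes an RNA-binding protein of the cytoplasm. Its circle of exons 19 to 20 (mmu_circ_0012070, chr5:121802081-121803080, plus) had 19, 64 and 51 reads on the HFD and 58, 61 and 16 on the LFD, 84.9% of 317 reads (80.5% to 88.4%). The lowest values of Atxn2 in both diets, 19 and 16, were those of HFD 1 and LFD 3, the libraries of the higher Q30 class. Adk encodes adenosine kinase. Its circle of exons 5 to 6 (mmu_circ_0005111, chr14:21234833-21240571, plus) had 28, 29 and 30 reads on the HFD and 16, 30 and 32 on the LFD, 77.8% of 212 reads (71.8% to 82.9%). It lay between introns that sum to 142395 bp. These 3 circles led their gene in each of the 6 libraries.

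**Figure D2:**
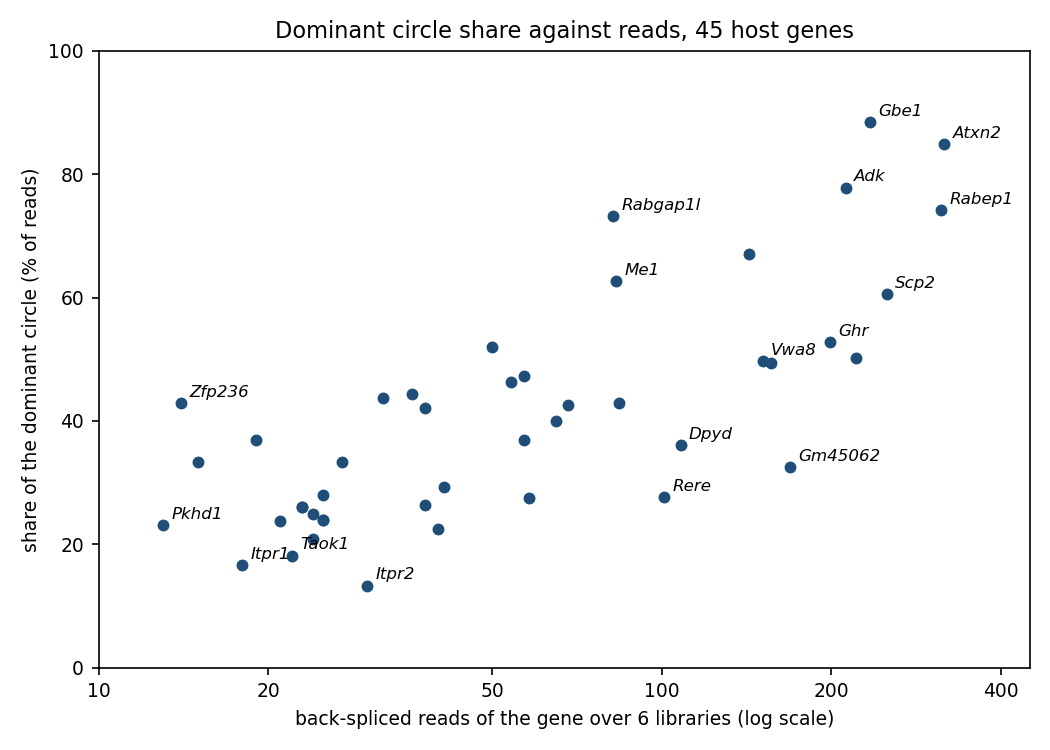
Share of the dominant circle in the reads of its gene (vertical axis, percent) against the back-spliced reads of the gene over 6 libraries (horizontal axis, log scale), 1 point per host gene, for 45 of the 46 genes. Gbe1, Atxn2, Adk and Rabep1 lie at the upper right, and genes under 50 reads lie below 45%.

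The lowest shares among genes with at least 20 reads were 13.3% in Itpr2 (4 of 30 reads, Wilson interval 5.31% to 29.7%), 18.2% in Taok1 (4 of 22, 7.31% to 38.5%), a kinase of stress signaling, and 20.8% in Slc4a4 (5 of 24, 9.25% to 40.5%), the sodium bicarbonate cotransporter. In these the lead rested on 5 reads or fewer and was shared with other circles in Itpr2 and Taok1, and the intervals are wide. Across the 46 genes the share went with the reads (Spearman rho = 0.742), a description over genes that share the same libraries and depth, and in genes of few reads the share of the highest circle has a floor set by 1 read. Some genes with over 100 reads nevertheless had a low share, such as Rere with 27.7% of 101 reads, Gm45062 with 32.5% of 169 and Dpyd with 36.1% of 108. In Rere the circles of exons 8 to 10 and exons 5 to 7 had 28 and 27 reads, so that the lead rested on 1 read. In Ghr, the growth hormone receptor, a pair of circles that shared an acceptor, circRNA1777 with 105 and circRNA1776 with 71 reads, made up most of the 199 reads. That acceptor, at chr15:3551685, held 94.0% of the reads, and in both circles at least 1 end was not at an exon end of the listed transcript.

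By function, 8 hotspot genes encode metabolic enzymes, 7 receptors, channels or kinases, 12 regulators of membrane traffic and small GTPases, 8 regulators of chromatin and transcription and 5 proteins of RNA binding and translation, while 6 were not placed. This division was made after the values were seen. The metabolic enzymes held the most reads, 1190 over 93 circles, and included Fggy, a carbohydrate kinase, and Man2a1, a Golgi mannosidase of N-glycan processing. The regulators of membrane traffic held 885 reads over 130 circles, among them Sec24a, a coat protein of vesicles leaving the endoplasmic reticulum, and Psd3, an exchange factor for ARF proteins. The chromatin genes, among them Ncor1 and Ash1l, a histone methyltransferase, held 337 reads over 81 circles. Of gene lists drawn up for liver, that of 47 plasma proteins made by hepatocytes had 26 genes with exonic circles and held no hotspot gene, where hotspot genes were 1.52% of all host genes. The lists of 23 amino acid and urea cycle enzymes, 41 lipid metabolism genes and 34 genes of drug and bile handling had 16, 28 and 20 genes with exonic circles and held 1 hotspot gene each, Dpyd, Scp2 and Gphn. Dpyd, a pyrimidine enzyme, and Gphn, which serves the molybdenum cofactor, do not belong by function to the lists that hold them. Without Dpyd and Gphn those lists, drawn up with earlier results known, hold no hotspot gene. The list of 47 nuclear genes had 39 with exonic circles and held 5 hotspot genes (Ash1l, Mllt10, Ncor1, Nfib and Rere). The lists of 32 signaling genes and 25 well-known circle hosts had 22 each with exonic circles and held Ghr and Pik3c2a, and Rere.

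The diets were compared first over the hotspot genes as a whole. The hotspot genes held 10.6%, 13.2% and 11.6% of the exonic reads on the HFD (libraries 1, 2 and 3) and 12.7%, 12.7% and 9.79% on the LFD. The groups overlapped, with 11.8% ± 1.34 in the HFD and 11.7% ± 1.69 in the LFD group (SD, n = 3 each, two-sided exact permutation test, p = 1.0, where the smallest p that 3 against 3 allow is 0.1). The lowest values were again those of HFD 1 and LFD 3, and the mean was 10.2% in the higher Q30 class and 12.6% in the lower. Reads of 147, 195 and 143 hotspot circles were found on the HFD and of 152, 177 and 133 on the LFD. The means were 161.7 ± 28.9 and 154.0 ± 22.1 (SD, n = 3 each). The number of circles chose the members, so these counts are given only as a description, without a test. After calculation for equal depth of 5027 reads the means were 153.6 and 151.4, which is likewise only a description.

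The dominant circles held 51.1%, 51.9% and 57.9% of the hotspot reads on the HFD and 58.1%, 54.2% and 57.8% on the LFD. The mean was 53.6% ± 3.72 in the HFD and 56.7% ± 2.18 in the LFD group, with overlap (SD, n = 3 each, exact permutation p = 0.3). The difference of -3.05 percentage points was -5.18 without HFD 3, -1.79 without HFD 1 and -1.23 in the lower Q30 class. Averaged gene by gene, the shares were 36.6%, 38.7% and 40.5% against 40.7%, 42.4% and 40.8%. All 3 HFD libraries lay below all 3 LFD libraries, although HFD 3 and LFD 1 were nearly level, and p = 0.1 is the smallest that this exact permutation test can give. The dominant circles were picked from these same reads, and in genes of few reads the pick could rest on 1 library. Examples are Fggy, with 6 reads all in HFD 1, and Eif4g3, with 5 all in LFD 2. This mean weights such genes equally, so its p value decides nothing. With the dominant circle chosen in the other diet, only the summed difference was calculated (-3.00). The circle with the most reads was the same in both diets in 31 of the 46 genes. It was not the same, for example, in Pik3c2a, Rere, Vps13b and Itpr2.

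For each host gene the reads of its exonic circles were summed, and the diets were compared with the edgeR quasi-likelihood test over the 1678 host genes with reads in at least 2 libraries. At the study's thresholds, which are an unadjusted p under 0.05 and a log2 fold change of 1 or more in size, 42 host genes passed (2.5%), 22 higher (1.31%) and 20 lower (1.19%) in the HFD group. The 42 were also all genes with an unadjusted p under 0.05. After Benjamini-Hochberg adjustment 0 had a p under 0.05 in edgeR, and the smallest adjusted p was 0.858. DESeq2 and limma also gave 0 adjusted calls, and 24 and 38 genes at the unadjusted thresholds. All 46 hotspot genes were tested and 3 passed the unadjusted thresholds (6.52%), Me1 and Pik3c2a lower and Itpr2 higher in the HFD group. The rule counted circles over both diets, so a gene could enter through the diet where it was higher. Itpr2 had 6, 7 and 2 circles on the HFD and 1, 1 and 2 on the LFD. Pik3c2a had 1, 3 and 2 against 4, 7 and 4, and Me1 3, 2 and 4 against 4, 6 and 3. The shares of hotspot genes and circles that passed or did not overlap are therefore only a description. The number that passed was 0 without HFD 2 or without LFD 1. The median log2 fold change was 0.04 in the hotspot genes and -0.08 in all genes tested, with 25 hotspot genes above and 21 below 0. The diets did not overlap in 3 hotspot genes, Pik3c2a, Arhgap10 and Ddi2, all lower in the HFD group, against 99 of all genes tested (5.9%).

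**Figure D3:**
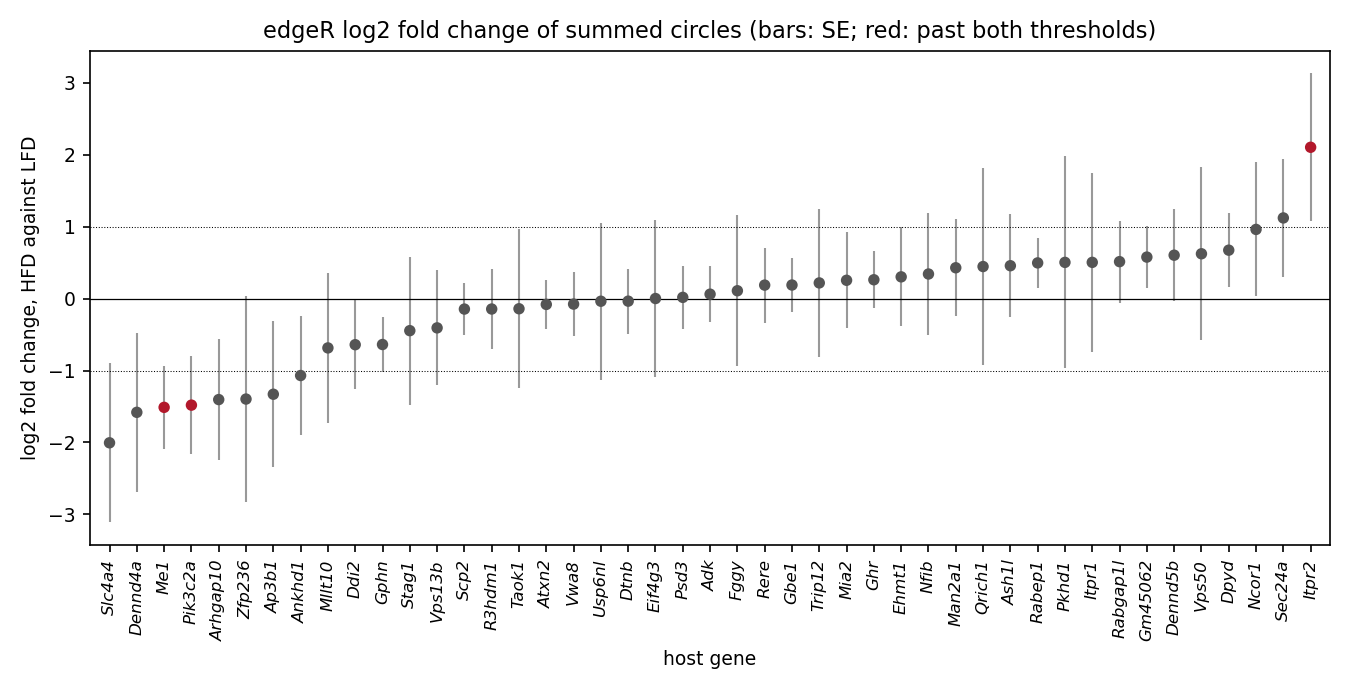
Log2 fold change of the summed circles of each of 45 of the 46 host genes (vertical axis, HFD against LFD, edgeR; bars are standard errors), in rising order along the horizontal axis, with dotted lines at a change of 1 in either direction and the genes past both unadjusted thresholds in red. Slc4a4 at -2.0 and Itpr2 at 2.10 are the extremes, and the bars of most genes cross 0.

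Me1 encodes cytosolic malic enzyme, which makes NADPH for fatty acid synthesis. Its 9 circles had 8, 8 and 7 reads on the HFD and 35, 19 and 6 on the LFD. The HFD libraries were nearly level, LFD 1 and LFD 2 lay above them and LFD 3 lay below them, so that the groups overlapped. The signal in SRPBM, which scales back-spliced reads to the mapped reads of a library, was 1.92 ± 0.105 in the HFD and 5.39 ± 3.87 in the LFD group (SD, n = 3 each, exact permutation p = 0.4). In edgeR the log2 fold change was -1.51 (SE 0.58) with an unadjusted p of 0.00882 and an adjusted p of 0.858. The difference was -5.33 SRPBM between the means of the lower Q30 class and 0.253 SRPBM, in the other direction, between HFD 1 and LFD 3. Without LFD 1 the log2 fold change was -0.81 (unadjusted p of 0.257), and without HFD 2 it was -1.50 (p of 0.114). The call was also lost with limma (-1.08, p of 0.0626).

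The difference in Me1 lay mostly in its dominant circle, of exons 7 to 9. Its junction, all coding, is shown in the notation used above.
Me1 circRNA1452 (chr9:86611853-86619834, minus): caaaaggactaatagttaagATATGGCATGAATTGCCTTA

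CircRNA1452 had 5, 5 and 1 reads on the HFD and 28, 10 and 3 on the LFD. The single highest value was that of LFD 1, and LFD 3 was below HFD 1 and HFD 2. Tested alone it had a log2 fold change of -2.05 (SE 0.74, unadjusted edgeR p of 0.00546, adjusted p of 0.709), and without LFD 1 one of -0.97 (unadjusted p of 0.338). With the Q30 class as a term it was -1.84 (p of 0.0569). The other 8 circles of the gene had 31 of its 83 reads.

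Pik3c2a encodes a class II phosphoinositide 3-kinase that acts in endocytosis and insulin signaling. Its 9 circles had 2, 6 and 8 reads on the HFD and 18, 12 and 11 on the LFD, without overlap, or 1.38 ± 0.855 against 3.67 ± 0.994 SRPBM (SD, n = 3 each, exact permutation p = 0.1, the smallest possible). The log2 fold change was -1.48 (SE 0.68, unadjusted edgeR p of 0.0306, adjusted p of 0.858), and the HFD group was lower within the lower and the higher Q30 class, by -2.22 and -2.44 SRPBM. The unadjusted call was lost without HFD 1 (-1.13), without HFD 2 (-1.51), without LFD 1 (-1.19) and in the lower Q30 class alone (-1.24, p of 0.0525). The difference was not shared evenly by its circles. The circle with the most reads, mmu_circ_0001619 of exons 20 to 21, had 2, 2 and 6 against 4, 2 and 5 reads, with overlap. In contrast, mmu_circ_0013805 of exons 5 to 8 (chr7:116387844-116391393, minus) had 0, 0 and 0 reads on the HFD and 10, 2 and 3 on the LFD. With the HFD group set to the floor of 3 reads per library, it was at least 1.78-fold lower (unadjusted edgeR p of 0.0038, adjusted p of 0.709), a call lost without LFD 1 (p of 0.0615), where the LFD mean of 0.672 SRPBM lay under the floor of 0.752 and no bound remained.

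Itpr2 had 8, 15 and 2 reads on the HFD and 1, 1 and 3 on the LFD. HFD 1 and HFD 2 lay above every LFD library and HFD 3 lay among them, so that the groups overlapped. The signal was 2.06 ± 1.65 against 0.445 ± 0.300 SRPBM (SD, n = 3 each, exact permutation p = 0.2), and the log2 fold change was 2.10 (SE 1.03, unadjusted edgeR p of 0.0411, adjusted p of 0.858). It was 1.45 without HFD 2 (unadjusted p of 0.213), and the call was also lost without HFD 1 (2.06), LFD 1 (1.88) or LFD 2 (1.83), with DESeq2 (2.11, p of 0.0538) and with limma (1.52, p of 0.0642). The HFD group was higher by 1.91 SRPBM in the lower Q30 class and by 1.04 SRPBM in the higher. These reads were spread over 16 circles of which none had more than 4. Its relative Itpr1, another calcium release channel, had 4, 5 and 2 reads on the HFD and 1, 3 and 3 on the LFD (log2 fold change 0.50, SE 1.24).

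**Figure D4:**
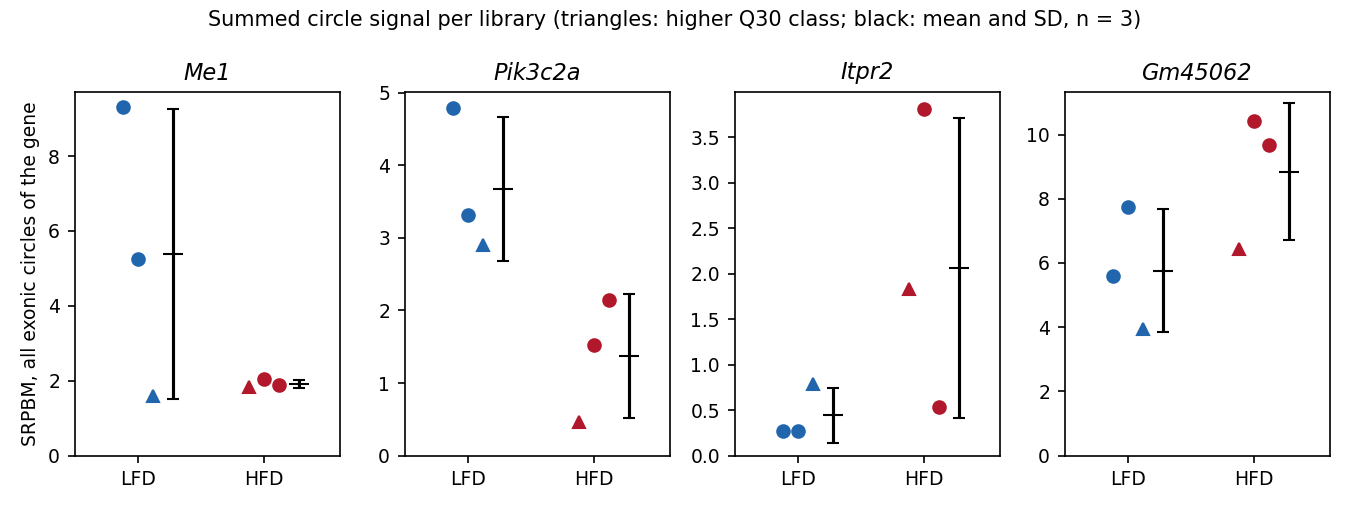
Summed signal of the exonic circles of Me1, Pik3c2a, Itpr2 and Gm45062 in each library (vertical axis, SRPBM, with its own scale in each panel), LFD in blue and HFD in red, with the mean and SD of 3 libraries in black and triangles for the libraries of the higher Q30 class. Pik3c2a is the gene of these 4 whose diets do not overlap, and in Me1 the LFD values run from below to well above the HFD values.

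The other 43 hotspot genes did not pass. Slc4a4 had 0, 2 and 3 reads on the HFD and 13, 3 and 3 on the LFD (log2 fold change -2.0, SE 1.10, unadjusted edgeR p of 0.0694), and without LFD 1 the log2 fold change was -0.90. It passed without HFD 3, LFD 2 or LFD 3 (-2.73, -2.35 and -2.37). Arhgap10, a GTPase-activating protein, had 6, 5 and 0 against 14, 6 and 7 reads, without overlap in SRPBM (-1.40, SE 0.84, p of 0.0945). It passed with limma (-1.56, p of 0.0395), in the lower Q30 class alone (-2.14, p of 0.0464) and without HFD 1 (-2.01, p of 0.0409). Ddi2 had 8, 8 and 12 against 14, 12 and 14 reads, also without overlap in SRPBM (-0.64, SE 0.62, p of 0.298). Gphn had 45, 40 and 6 against 36, 46 and 48 reads, where HFD 3 alone was low (-0.64, SE 0.38, p of 0.0956). It passed with limma (-1.0, p of 0.00994) and without HFD 1 (-1.12, p of 0.0176), and was -0.18 without HFD 3. Gm45062 had 28, 41 and 36 against 21, 28 and 15 reads (0.58, SE 0.43, p of 0.175), and Rabep1 had 36, 71 and 84 against 58, 33 and 31 (0.50, SE 0.34, p of 0.149).

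Of the 10 hotspot genes with the most reads, Gphn, Rabep1 and Gm45062 are given above and the other 7 follow. Gbe1 had 40, 54 and 36 reads on the HFD and 26, 35 and 43 on the LFD, with a log2 fold change of 0.19 (SE 0.38). Scp2 had 45, 43 and 37 against 47, 34 and 45 (-0.15, SE 0.37), and Atxn2 had 33, 76 and 53 against 60, 67 and 28 (-0.08, SE 0.34). Adk had 38, 43 and 32 against 24, 34 and 41 (0.06, SE 0.39). Ghr had 29, 41 and 43 against 23, 38 and 25 (0.26, SE 0.40), and Psd3 had 31, 34 and 17 against 21, 25 and 28 (0.02, SE 0.44). Vwa8 had 22, 30 and 25 against 16, 15 and 43 (-0.08, SE 0.44), with its highest value in LFD 3. In these 7 genes the diets overlapped and the change was smaller than its SE, though the SE of 0.34 to 0.44 would leave room for a moderate change. Over all 46 hotspot genes the median SE was 0.70.

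Circle by circle, 199 of the 495 hotspot circles had reads in at least 2 libraries and were tested, while 296 were not. The edgeR test covered 1971 exonic circles in all, of which 43 passed the unadjusted thresholds (2.18%), with 20 of them higher (1.01%) and 23 lower (1.17%) on the HFD, while 0 had an adjusted p under 0.05 (smallest 0.709). DESeq2 and limma gave 16 and 33 unadjusted and 0 adjusted calls. Of the 199 hotspot circles 4 passed (2.01%), 1 higher and 3 lower in the HFD group: the 2 described for Me1 and Pik3c2a and 1 each in Scp2 and Psd3. The diets did not overlap in 10 of the 199, 5 in each direction, against 102 of all circles tested (5.18%).

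In Scp2, where the gene's sum had a log2 fold change of -0.15, 1 circle passed the unadjusted thresholds. CircRNA1657 (chr4:108092825-108112284, minus, 6 exons) had 3, 5 and 5 reads on the HFD and 0, 0 and 0 on the LFD, which made it at least 1.36-fold higher against the floor of 3 reads per library (unadjusted edgeR p of 0.0179, adjusted p of 0.709). This bound was 1.62 without HFD 1, 1.259 without HFD 2 and 1.215 without HFD 3. CircRNA1659, with the same acceptor and 4 exons, had 13, 9 and 8 against 6, 4 and 8 reads, without overlap in SRPBM (log2 fold change 0.59, unadjusted p of 0.425). CircRNA4585 and circRNA4583 had no HFD reads and 2, 1 and 3 and 1, 1 and 1 LFD reads, at or under the floor, so that no fold change is given. The dominant circle, circRNA1053 of exons 13 to 14, had 21, 22 and 24 reads on the HFD and 35, 20 and 30 on the LFD, with overlap. The annotated span of Podn overlaps that of Scp2 on the same strand, and this circle lies in the shared stretch, but no circle was listed under Podn.

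In Psd3, mmu_circ_0014905 had no reads on the HFD and 0, 4 and 4 on the LFD (unadjusted edgeR p of 0.0452, adjusted p of 0.709). LFD 1 was at 0 like the HFD libraries, the mean was at or under the floor, and the call was lost without any 1 of the HFD libraries, with DESeq2 (p of 0.131) and with limma (p of 0.0811). Of the hotspot circles without overlap that did not pass, circRNA810 of Gm45062 had 9, 6 and 10 reads on the HFD and 4, 4 and 3 on the LFD (log2 fold change 1.01, unadjusted p of 0.242). The dominant circle of Man2a1, mmu_circ_0000803, had 7, 5 and 7 against 1, 4 and 3 reads (1.09, p of 0.285). The dominant circle of Rabgap1l, mmu_circ_0008324, had 13, 13 and 11 against 7, 10 and 6 (0.53, p of 0.43). In Vps13b, mmu_circ_0005607 had 0, 1 and 0 against 4, 2 and 2 reads, most of them at or under the floor.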

How the data were processed

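Liver RNA from 3 HFD and 3 LFD mice was sequenced, and libraries were grouped by title. The authors removed adapters with cutadapt, used Bowtie2, TopHat2 and TopHat-Fusion for mapping, and took circRNAs from CIRCExplorer2 and CIRI. They deposited raw back-spliced read counts and, as a signal, SRPBM, equal to the count times 1 factor per library (0.229 to 0.277 per read), for unpooled libraries with 5384 to 6590 reads. The submitters' processing notes name cutadapt 1.9, TopHat2 2.0.4 and mm9, but the positions lay on GRCm38 exons of GENCODE M21, the annotation used here. The libraries had been made to keep strand.

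Of the hotspot genes, 46 of 46 were found in the annotation by name. Entries 1 bp apart were joined (338 circles, 32 of them in hotspot genes; 5 joined pairs carry a pair of gene names, none a hotspot gene). Splice sites 1 bp apart counted as 1 site. Host genes and circles were tested on counts with edgeR 4.0.16 (glmQLFTest, TMM, two-sided, Benjamini-Hochberg over all features tested) in R 4.3.3, after a check on simulated data. TMM factors lay between 0.948 and 1.04 and the common dispersion was 0.521 for host genes and 0.781 for circles. For single values, the exact permutation test (two-sided, NumPy 2.4.6) used all 20 arrangements of the libraries. Depth was equalised by calculation (SciPy 1.17.1), not by drawing reads. Intervals and floors cover counting error only.

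Members, lists, tests and named genes were chosen with earlier results of these data known. Named were the 10 genes with the most circles and the 10 with the most reads, ties kept, the 3 highest and 3 lowest dominant shares from 20 reads, and genes or circles past the unadjusted thresholds. Other genes were named after their values were seen. Alternatives were no TMM, DESeq2 1.42.0, limma 3.58.1 on log2(SRPBM + 0.25), other filters, intronic circles added, entries not joined, the Q30 class as a term, its lower class alone, a replicate block and each library left out. Some tables of the study were not used here. The values of 1 hotspot gene, and 1 gene list that holds it, are not reported here by name and the gene is left out of the figures, but it is counted in the totals.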

Additional observations from a re-analysis of the deposited data

Results flagged for a closer look

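In 6 of the 46 hotspot genes the deposited list also holds circles of the intronic class, which entered the comparisons only in the alternative with intronic circles added. There were 10 of them with 53 back-spliced reads, 9, 6 and 13 on the HFD and 6, 6 and 13 on the LFD, above the 3 reads that a count of 0 allows. Ghr held 5 of the 10, among them ciRNA343 with 2, 6 and 4 reads on the HFD and 6, 3 and 6 on the LFD, the only one of them with reads in every library. The other 9 had reads in 1 or 2 libraries each.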

How the results depend on the processing

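The 3 host genes and 4 circles past the unadjusted thresholds became 0 to 5 and 3 to 8 when libraries were left out in turn, 5 host genes without HFD 3 or LFD 3 and 8 circles without LFD 1. The other settings gave 2 or 3 host genes and 3 to 6 circles, not always the same ones. DESeq2 lost Itpr2, limma lost Itpr2 and Me1 and gained Arhgap10 and Gphn, and the lower Q30 class lost Pik3c2a and gained Arhgap10. Of the 4 circles, limma kept 3 and gained 3 others, and the Q30 class as a term kept 2 and gained 1. Over all features, where the default counts were 42 host genes and 43 circles, DESeq2 gave 24 and 16 and the Q30 class as a term 25 and 17. The lower Q30 class alone gave 17 circles, and leaving out libraries gave 29 host genes at the lowest and 16 circles. Replicate numbers did not pair the libraries, since the correlations of same-numbered libraries were -0.11, 0.26 and -0.17 while HFD 1 and LFD 3, of the higher Q30 class, had 0.45. With the replicate number as a block 2 hotspot genes (Itpr2 lost, log2 fold change 1.9, p of 0.117) and 3 hotspot circles passed, of 16 and 12 in all. Of the 4 circles, circRNA1657 (p of 0.0577) and mmu_circ_0014905 (p of 0.19) were lost and 1 other was gained. The adjusted calls were 0 under every setting run.

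The number of hotspot circles per library, HFD minus LFD, was 7.67 and lay between -9 and 19.2 when libraries were left out, turning to -9 without HFD 2 and -2.83 without LFD 3. The share of exonic reads differed by 0.0416 percentage points, by -0.328 in the lower Q30 class, and by -0.937 to 0.651 with libraries left out (-0.673 without HFD 2, -0.937 without LFD 3). The SRPBM of the hotspot genes differed by 4.57, with -12.6 to 23.1 (-12.6 without HFD 2, -5.77 without LFD 3). The cause of these turns was not tested, and each difference was within the spread of the libraries. The dominant share of 55.0% was 41.3% as the mean of the genes' shares, which weights genes of few reads equally.

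The 46 genes became 66 without joining entries, 31 at 10 or more circles, 17 with circles of at least 2 reads and 4 with circles in at least 2 libraries. They numbered 36 to 44 when libraries were left out, an alternative chosen after the data were seen.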
